A study of Mus musculus with 16 samples.

Results

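The Hox genes are the 39 protein-coding genes of the mouse annotation whose symbols join Hox, a cluster letter from a to d and a paralogue number. They were 39 of 21887 protein-coding genes on the autosomes and sex chromosomes, and they lie in 4 clusters, with 11 members in HoxA, 10 in HoxB, 9 in HoxC and 9 in HoxD. Their chromatin was described in stem cells of C57BL/6 mouse skeletal muscle in the states labelled QSC and ASC, the field's abbreviations for quiescent and activated muscle stem cells. Chromatin was immunoprecipitated for trimethylated lysine 4 of histone H3 (H3K4me3) or trimethylated lysine 27 (H3K27me3) and tagmented for sequencing. Each combination of mark and state had 2 immunoprecipitated samples, each with its own input, 16 samples in all. Strain and tissue were the same in all groups, and the labels name no allele or agent. Age, sex, the way cells were isolated or brought to the ASC state, and whether the samples came from separate animals were not stated in the labels.

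Hox genes encode homeodomain transcription factors that set positional identity along the body axis and the limb. Members with the same number in different clusters are paralogues, and within each cluster they lie in the order of their expression along the axis, with group 13 at the end used most posteriorly and group 1 at the end used most anteriorly. H3K27me3 is deposited by Polycomb repressive complex 2 and marks silenced developmental genes over wide domains, whereas H3K4me3 marks active or poised promoters. Adult muscle stem cells are known to keep Hox expression patterns that reflect the position of the muscle they come from.

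Values came from 8 peak lists that the authors deposited. Each mark was called as narrow and as broad peaks in each state. Both samples of a group carry the names of the same lists in their labels, so a group is 1 pooled list, no replicate spread exists and no difference between QSC and ASC could be tested. A fold below is the authors' fold enrichment of a peak over background. The median fold of H3K4me3 narrow peaks was 10.4 in the QSC list of 14354 peaks and 16.3 in the ASC list of 15869 peaks, so folds are compared here within a list. A gene counted as carrying H3K4me3 when a narrow peak touched the window of 1 kb either side of its start, and as carrying H3K27me3 when at least 500 of the same 2001 bp lay under broad peaks. The RefSeq promoter table listed starts for 22 members, and Hoxa10 and Hoxd11 have 2 starts there. The end of the gene record served as the start of the other 17, in the orientation that listed members of the same cluster share. Neighbouring members often lie under the same peak, so they are not independent of each other.

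In HoxA and HoxD the marks changed between adjacent genes whose promoters the RefSeq table holds, and those sequences are shown for the genes on either side of the changes. The 250 bases before each start are given 5′ to 3′ on the strand of the gene (RefSeq, GRCm38.p6), with CG dinucleotides, the sites of DNA methylation, in capitals. The HoxA set runs from the end of the cluster marked by H3K27me3 into the block of H3K4me3.
Hoxa13 (chr6:52260881-52261130, minus strand): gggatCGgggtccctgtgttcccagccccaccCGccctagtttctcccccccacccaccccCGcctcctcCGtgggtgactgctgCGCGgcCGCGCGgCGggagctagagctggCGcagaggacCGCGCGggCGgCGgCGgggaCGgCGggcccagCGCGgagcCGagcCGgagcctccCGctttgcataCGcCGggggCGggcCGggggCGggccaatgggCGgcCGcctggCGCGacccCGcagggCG
Hoxa11 (chr6:52245811-52246060, minus strand): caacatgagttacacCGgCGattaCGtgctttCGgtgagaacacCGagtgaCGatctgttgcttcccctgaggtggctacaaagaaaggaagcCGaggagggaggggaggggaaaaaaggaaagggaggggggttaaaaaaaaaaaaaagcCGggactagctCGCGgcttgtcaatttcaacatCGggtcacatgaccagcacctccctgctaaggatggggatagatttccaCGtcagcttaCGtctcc
Hoxa10, distal start (chr6:52240855-52241104, minus strand): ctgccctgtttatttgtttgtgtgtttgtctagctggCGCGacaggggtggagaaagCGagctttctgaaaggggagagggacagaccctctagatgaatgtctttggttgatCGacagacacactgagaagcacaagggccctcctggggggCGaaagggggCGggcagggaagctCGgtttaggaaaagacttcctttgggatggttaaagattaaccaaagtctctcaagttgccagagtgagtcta
Hoxa9 (chr6:52227371-52227620, minus strand): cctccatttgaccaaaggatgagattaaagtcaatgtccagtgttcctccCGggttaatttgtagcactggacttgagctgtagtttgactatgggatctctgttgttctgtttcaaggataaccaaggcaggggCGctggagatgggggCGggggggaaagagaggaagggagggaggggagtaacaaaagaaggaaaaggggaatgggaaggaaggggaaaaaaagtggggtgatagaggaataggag
The HoxD set holds adjacent promoters, the first without an H3K4me3 narrow peak and the second with one.
Hoxd10 (chr2:74691641-74691890, plus strand): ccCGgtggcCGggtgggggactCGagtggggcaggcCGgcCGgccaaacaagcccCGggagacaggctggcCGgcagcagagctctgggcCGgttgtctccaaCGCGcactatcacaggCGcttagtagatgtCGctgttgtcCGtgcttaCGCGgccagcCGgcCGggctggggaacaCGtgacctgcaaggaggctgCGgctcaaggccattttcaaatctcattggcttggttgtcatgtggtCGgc
Hoxd9 (chr2:74697513-74697762, plus strand): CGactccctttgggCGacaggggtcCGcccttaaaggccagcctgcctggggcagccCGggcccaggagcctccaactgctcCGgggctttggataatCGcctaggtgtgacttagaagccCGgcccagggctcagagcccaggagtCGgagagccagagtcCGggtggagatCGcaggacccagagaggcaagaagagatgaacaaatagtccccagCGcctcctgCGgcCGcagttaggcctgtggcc
The clusters also hold microRNAs of the miR-196 and miR-10 families, known to target Hox transcripts. Their mature sequences are shown because each family shares a seed across clusters, and the genes of the miR-196 family were marked in opposite ways. The capitals mark the seed, bases 2 to 8.
miR-196a-5p: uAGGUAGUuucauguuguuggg
miR-196b-5p: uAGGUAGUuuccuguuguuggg
miR-10a-5p: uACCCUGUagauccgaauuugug
miR-10b-5p: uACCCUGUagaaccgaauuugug

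At least one of the marks was called at the start of every Hox gene in both states, while 27.5% of 17492 protein-coding genes with a listed start had neither in QSC and 24.2% had neither in ASC. H3K27me3 was called at 27 of the 39 members in each state, against 22.6% of all genes in QSC and 27.8% in ASC. They were the same 27 genes, with 0 called in QSC only (2.36% of all genes) and 0 in ASC only (7.57%). H3K4me3 was called at 20 members in QSC and 22 in ASC, near the background of 55.3% and 57.7%. The members divided by cluster: 7 of 9 HoxC genes carried H3K4me3 without H3K27me3 in QSC (background 49.9%), 5 of 11 HoxA genes did, a share near that background, and all 10 HoxB genes carried H3K27me3 without H3K4me3 (background 17.2%). In QSC 8 members had both marks at the same start, against 4.66% of all genes, and in ASC 10 did, against 9.22%. Of 62 other homeobox genes with a listed start, 56 carried H3K27me3 in each state, and 15 in QSC and 31 in ASC had both marks. Without a test, no difference between the Hox genes and these genes is claimed. All H3K27me3 calls in QSC rest on broad peaks with a −log10 q under 5: at that minimum 0 of 39 members would be called in QSC and 24 in ASC. The narrow H3K27me3 lists called 22 members in QSC and 24 in ASC. At HoxB starts the strongest narrow peaks in QSC had a −log10 q from 9.32 (Hoxb4) to 24.2 (Hoxb9).

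**Figure D1:**
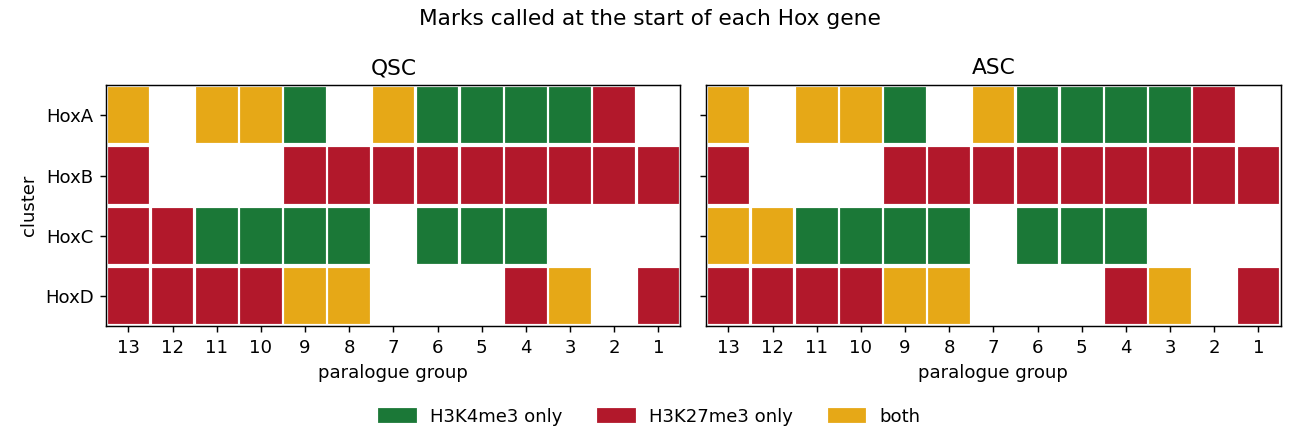
Marks called at the start of each Hox gene in QSC (left) and ASC (right). Rows are clusters, columns are paralogue groups from 13 to 1, and white squares are positions with no gene or not reported here. HoxB is H3K27me3 only in every square, and the squares that differ between the panels are Hoxc13 and Hoxc12, which gain the H3K4me3 call in ASC.

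Measured over bases rather than genes, the clusters kept the same order in both states. The HoxC cluster (chr15:102921131-103036856, mm10) had 46.8% of its 115726 bp under H3K4me3 narrow peaks in QSC and 55.6% in ASC. HoxA (chr6:52155367-52260880) had 35.4% and 48.0% of 105514 bp. HoxD (chr2:74668225-74765142) had 4.36% and 3.51% of 96918 bp, and HoxB (chr11:96194316-96368254, 173939 bp) had no H3K4me3 narrow peak in either list. H3K27me3 followed the reverse order. Broad peaks of this mark covered 100% of HoxB and of HoxD in both states, 45.3% of HoxA in QSC and 50.6% in ASC, and 22.6% and 26.4% of HoxC. Over the 4 clusters together, 94.9% of the bases under H3K4me3 narrow peaks in QSC were also under them in ASC, and 76.8% of those in ASC were in QSC. For H3K27me3 broad peaks these shares were 97.9% and 95.2%.

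**Figure D2:**
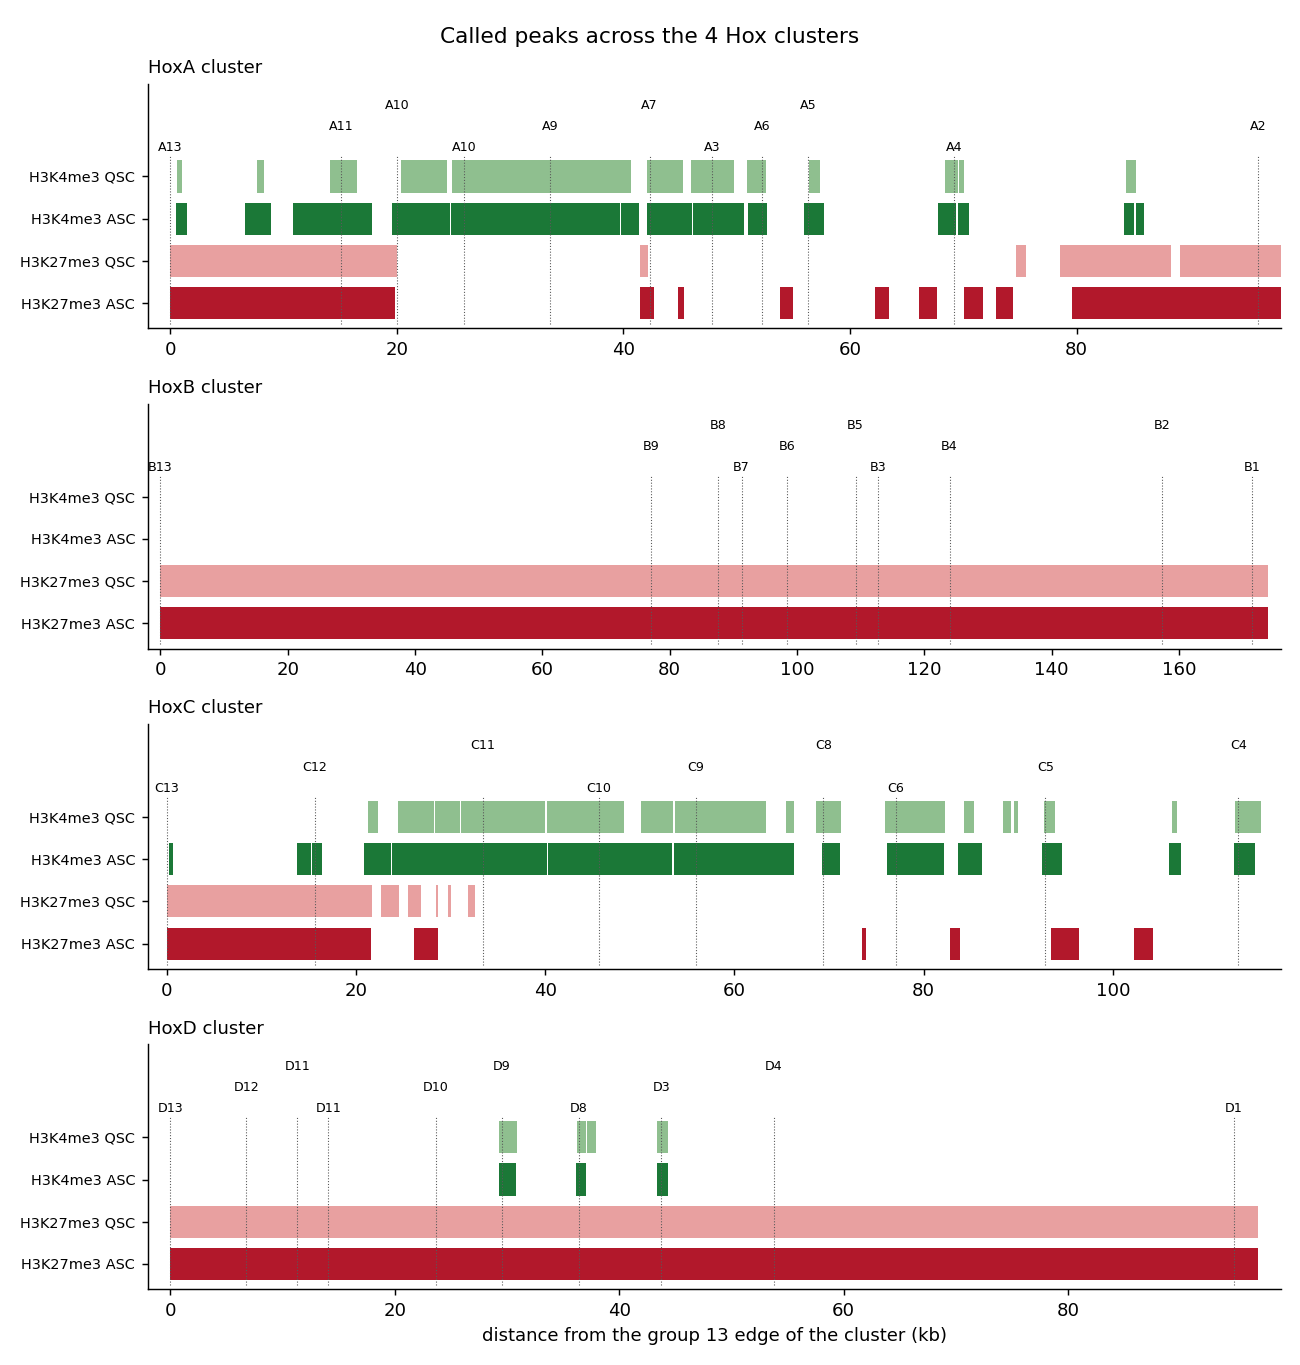
Called peaks along the 4 Hox clusters, with distance from the group 13 edge in kb. Green bars are H3K4me3 narrow peaks and red bars H3K27me3 broad peaks, pale for QSC and dark for ASC, and dotted lines are gene starts (Hoxa10 and Hoxd11 have 2). H3K27me3 fills HoxB and HoxD, ends between Hoxc12 and Hoxc11 and at the distal Hoxa10 start, and returns over Hoxa2. The last stretch of HoxA past Hoxa2 is not drawn.

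HoxA was divided into 3 stretches. At its posterior end, Hoxa13 and Hoxa11, which pattern the distal limb and the forearm, lay under an H3K27me3 broad peak of 89951 bp in QSC (fold 3.82) and of 41741 bp in ASC (fold 4.33), and each also had an H3K4me3 narrow peak. The Hoxa13 peak had a fold of 7.50 in QSC and 13.005 in ASC and covered 423 and 482 bp of the window, all of it downstream of the start. With windows of 500 bp either side it was not called. The Hoxa11 peak was 2383 bp long with a fold of 6.77 in QSC, and 7046 bp long with a fold of 17.7 in ASC. The record of Hoxa11 thus went from 37.5% under H3K4me3 narrow peaks in QSC to 74.9% in ASC, and from 85.2% to 20.5% under H3K27me3 narrow peaks. Of all members, Hoxa11 was the one where the bases of the marks moved in opposite directions furthest by this measure. Hoxd8, in HoxD, went the other way, from 42.5% to 19.2% under H3K4me3 and from 31.9% to 83.8% under H3K27me3 narrow peaks.

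The middle of HoxA, from Hoxa10 to Hoxa4, was the H3K4me3 stretch. Hoxa10, required for uterine function, and Hoxa9, a gene of posterior axial patterning and of blood progenitors, shared an H3K4me3 narrow peak of 15778 bp with a fold of 22.5 in QSC. In ASC the shared peak was 14910 bp long with a fold of 32.3. These were the highest folds of HoxA, at the 97.6 percentile of the QSC list and the 89.5 percentile of the ASC list. Hoxa7 had folds of 15.0 and 19.1 in QSC and ASC. Hoxa3, which acts in the third pharyngeal arch, had folds of 12.4 and 19.9 at its listed start, which lies between those of Hoxa7 and Hoxa6 because the record spans 44009 bp. Lower folds were found towards the anterior end of the stretch. Hoxa6 had folds of 5.97 and 5.60, and Hoxa4 of 7.50 and 9.39. Hoxa5, which acts in lung and cervical skeleton, had a fold of 4.84 in QSC and 13.2 in ASC, with 934 and 1342 bp of its window covered.

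Within that stretch the calls of H3K27me3 were marginal. At Hoxa7 the broad peak was 707 bp long with a fold of 1.73 and a −log10 q of 0.19 in QSC, and 1312 bp long with a fold of 1.55 and a −log10 q of 0.13 in ASC. A minimum fold of 3 removed Hoxa7 from the genes with H3K27me3 in both states. Other weak broad peaks lay in the stretch in ASC. They covered 55.2% of the Hoxa4 record (fold 1.63) and 28.4% of the Hoxa6 record (fold 1.59), against 0 in QSC. With windows of 2.5 kb either side, Hoxa4 was called for H3K27me3 in ASC. The proximal Hoxa10 start (position 52234939) had no H3K27me3, and the distal one (position 52240854) was called through 1018 bp in QSC and 785 bp in ASC at the edge of the posterior domain. H3K27me3 narrow peaks had 0 bp in the windows of all HoxA starts from Hoxa10 to Hoxa3 in both lists.

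H3K27me3 returned past the middle stretch. Hoxa2, the selector gene of the second pharyngeal arch, had no H3K4me3 narrow peak in its window, and H3K27me3 narrow peaks covered 1621 bp of its window in QSC and all 2001 bp in ASC. H3K4me3 broad peaks covered 1262 bp of that window in QSC (fold 3.06) and 2001 bp in ASC (fold 1.78). In QSC the H3K27me3 broad peak over Hoxa2 was 73260 bp long with a fold of 2.81, and in ASC 21830 bp long with a fold of 3.21.

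HoxC carried the highest H3K4me3 folds of the Hox genes in ASC and a single change of marks. Hoxc11, Hoxc10 and Hoxc9, which act in lumbar and thoracic patterning, had folds of 21.3, 19.8 and 18.9 in QSC and of 37.8, 19.7 and 30.0 in ASC, and H3K4me3 filled the windows of all of them in both lists. The peak over the Hoxc11 start was 8901 bp long in QSC and 16323 bp in ASC, the fourth longest of the ASC narrow list. Towards the anterior end, Hoxc8 had folds of 8.47 and 6.88. Hoxc6, a marker of the forelimb level in the spinal cord, had folds of 15.2 and 20.4, Hoxc5 of 9.44 and 11.0, and Hoxc4 of 10.9 and 16.3. None of these 7 genes had an H3K27me3 call in either state. H3K27me3 reached 150 bp of the Hoxc11 window in QSC and 385 bp of the Hoxc5 window in ASC, both short of 500 bp, and the Hoxc5 call was made in ASC with a window of 2.5 kb either side.

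The posterior end of HoxC held the members whose calls differed between states. Hoxc13, known for its role in hair and nail, and Hoxc12 lay under an H3K27me3 broad peak of 102034 bp in QSC (fold 3.67) and 102662 bp in ASC (fold 4.81). Neither had an H3K4me3 narrow peak in QSC. In ASC the Hoxc13 window held a peak with a fold of 6.68 and a −log10 q of 18.5, covering 513 bp, and the Hoxc12 window held 2 peaks, the stronger with a fold of 6.14 and a −log10 q of 15.8, covering 1562 bp together. Both folds were low for that list, at its 20.7 and 18.4 percentiles. Among all genes with a listed start, 3.07% had H3K4me3 in ASC and not in QSC, and 0.680% the reverse, of which the Hox genes held 0. Both calls were lost when the ASC list was limited to its highest folds so that it covered as many bases as the QSC list. In the broad H3K4me3 lists Hoxc13 was called in QSC too, through a peak of 1699 bp with a fold of 1.96, and Hoxc12 was not.

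HoxB was the most uniform cluster. All of its 10 genes, from Hoxb13, which acts in prostate and tail, to Hoxb1, a selector of hindbrain identity, lay under the same H3K27me3 broad peak. It was 316689 bp long in QSC (chr11:96096098-96412786, fold 4.01, −log10 q 4.68) and 300323 bp in ASC (chr11:96100519-96400841, fold 5.79, −log10 q 14.1). By length it ranked 2 of 130668 peaks in the QSC list and 3 of 95819 in the ASC list. The peak extended past Hoxb13 and touched the records of Ttll6 and Calcoco2 in both lists. The narrow H3K27me3 lists showed structure that the broad peak hid. In QSC 63 narrow peaks covered 87.9% of the cluster, and 1091 to 2001 bp of each start window lay under them, lowest at Hoxb7. In ASC 24 narrow peaks covered 96.0%, and every HoxB window was covered in full. The longest ran over the starts of Hoxb6, Hoxb5, Hoxb4 and Hoxb3 for 50710 bp (chr11:96290579-96341288, fold 14.5), and no H3K27me3 narrow peak in the ASC list was longer. H3K4me3 appeared in HoxB as weak broad peaks alone, 9 in QSC and 5 in ASC, with folds up to 1.93 in QSC and 2.27 in ASC, and they touched the windows of Hoxb7, Hoxb4 and Hoxb2 in both lists and of Hoxb9 in ASC.

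HoxD lay under H3K27me3 as fully as HoxB, with H3K4me3 at 3 starts. The broad peak was 213257 bp long in QSC (fold 3.68) and 244152 bp in ASC (fold 4.89), ranks 8 and 7 by length, and took in Evx2 beside all 9 members. Hoxd13, Hoxd12, Hoxd11 and Hoxd10, the genes of distal limb patterning, had no H3K4me3 narrow peak in either list. Hoxd9 did, with folds of 7.26 in QSC and 7.77 in ASC. Hoxd8 had folds of 4.60 and 6.68, and Hoxd3, which acts in the neck vertebrae, had folds of 6.53 and 9.57 at its listed start. That start lies between those of Hoxd8 and Hoxd4, so the 3 marked starts were neighbours. Hoxd4 and Hoxd1 carried H3K27me3 alone. In QSC the H3K27me3 narrow peak before Hoxd9 ended at position 74697383 and the H3K4me3 peak began at position 74697515, and a second H3K27me3 narrow peak (chr2:74698661-74701321) overlapped its downstream part. In ASC an H3K27me3 narrow peak of 28934 bp (chr2:74673325-74702258) ran across the whole Hoxd9 H3K4me3 peak. At Hoxd3 no H3K27me3 narrow peak touched the window in QSC, and 1664 bp of it were covered in ASC. H3K27me3 narrow peaks over HoxD numbered 33 in QSC and 11 in ASC and covered 84.4% and 97.2% of the cluster.

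**Figure D3:**
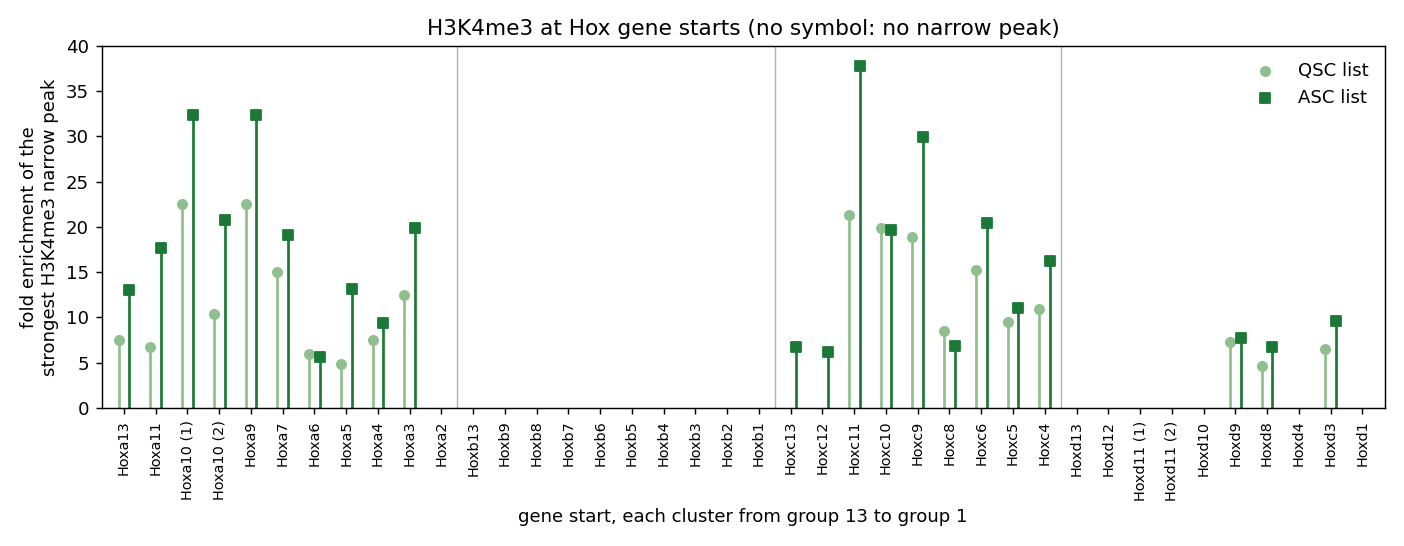
Fold enrichment (the authors' value) of the strongest H3K4me3 narrow peak in the window of each Hox gene start reported, in the QSC list (circles) and the ASC list (squares). Starts are ordered from group 13 to group 1 in each cluster, and a missing symbol means no narrow peak. HoxD symbols stay under 10, those of HoxA reach 32.3 at Hoxa9 and Hoxa10, and those of HoxC reach 37.8 at Hoxc11.

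Paralogues of the middle groups often differed in their marks. In QSC the 4 members of group 9 were marked in 3 ways: Hoxa9 and Hoxc9 by H3K4me3 alone, Hoxd9 by both and Hoxb9 by H3K27me3 alone. Groups 10 and 11 each had a HoxA member with both marks, a HoxC member with H3K4me3 and a HoxD member with H3K27me3. In groups 4, 5 and 6 the HoxA and HoxC members carried H3K4me3, and the HoxB members, with Hoxd4, carried H3K27me3. H3K27me3 was shared by whole groups at the posterior end and elsewhere. All 4 members of group 13, both of group 2, both of group 7 and both of group 12 carried H3K27me3 in each state. Of those 10 genes, Hoxa13 and Hoxa7 also had H3K4me3 in QSC, joined by Hoxc13 and Hoxc12 in ASC. A minimum fold of 3 removed the H3K27me3 calls of Hoxa7 in both states and of Hoxa2 in QSC.

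H3K27me3 narrow peaks resolved the windows better than the broad ones. Of 41 starts, 14 had more bases under them in ASC than in QSC, 3 had fewer, and 24 were equal, 15 of those at 0 in both. The 14 were 7 in HoxB, 5 in HoxD and 2 in HoxA. Those with fewer bases in ASC included Hoxc13, with 1669 and 1468 bp, and Hoxa11, with 1527 bp in QSC against 1030 bp in ASC. Both of these starts carried H3K4me3 in ASC. Not every such start had fewer bases in ASC: Hoxa13 went from 140 to 950 bp, Hoxd9 from 724 to 2001 bp and Hoxd8 from 1053 to 1642 bp. H3K4me3 narrow peaks also covered more bases in ASC at 14 starts, 8 of them in HoxA, and fewer at 3. Those 3 were Hoxc8 (1776 bp in QSC and 1187 bp in ASC), Hoxc6 (2001 and 1944 bp) and Hoxd8 (1047 and 843 bp). The ASC lists covered more of the genome as a whole, 35427498 bp against 24421313 bp for H3K4me3 narrow peaks and 88351273 bp against 53771707 bp for H3K27me3 narrow peaks, and the part of this in the members' values was not tested.

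**Figure D4:**
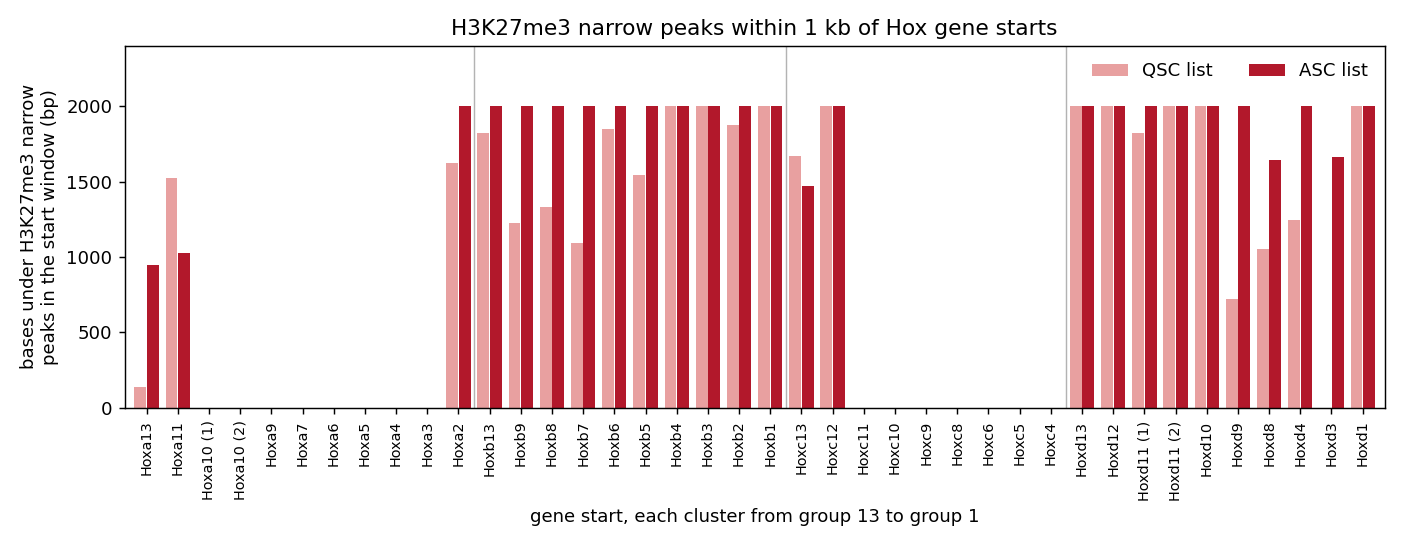
Bases under H3K27me3 narrow peaks in the window of each Hox gene start reported, QSC pale and ASC dark, ordered from group 13 to group 1 in each cluster. A full window is 2001 bp. All HoxB windows are full in ASC, and the windows from Hoxa10 to Hoxa3 and from Hoxc11 to Hoxc4 are at 0.

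The positions where H3K27me3 ended within HoxA and HoxC were taken from broad peaks with a fold of at least 2, merged over gaps of up to 3 kb. In HoxA the posterior domain ended at position 52240837 in QSC, 17 bp from the distal Hoxa10 start, and at position 52241070 in ASC, 216 bp from it, a difference of 233 bp. In HoxC it ended at position 102942820 in QSC and 102942697 in ASC, a difference of 123 bp. Without the minimum fold, the merged QSC domain reached position 102953675 through short peaks and the ASC one did not change, so the difference there became 10978 bp, while the HoxA differences were unchanged. The borders of the longer peaks both lay in the interval between Hoxc12 and Hoxc11, 5994 and 5871 bp past the Hoxc12 start. In HoxA the anterior domain ended at positions 52182328 and 52181293, a difference of 1035 bp, within the Hoxa3 record. H3K4me3 narrow peaks began at or across the posterior borders. In QSC the first HoxA peak beyond the border, 4072 bp long with a fold of 10.4, ended before it, and in ASC the peak, 5125 bp long with a fold of 20.8, crossed it. At the HoxC border a peak with a fold of 10.4 in QSC (chr15:102942459-102943495) and a peak with a fold of 14.1 in ASC (chr15:102941999-102944892) crossed it, with no member start within 1 kb. Beyond the HoxC border each list held 5 short H3K27me3 broad peaks. Those in QSC ended before the Hoxc11 start, and those in ASC, with folds from 1.46 to 1.69, were spread up to position 103025423, past Hoxc5.

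**Figure D5:**
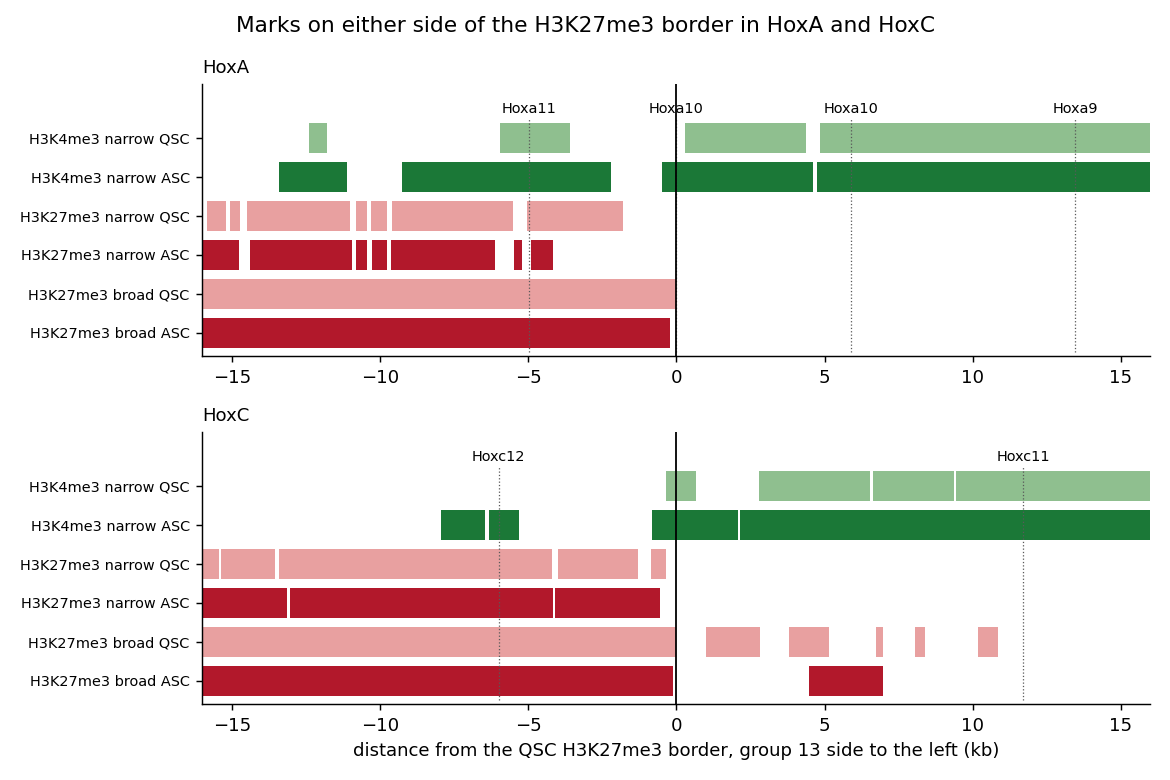
Narrow and broad peaks of both marks within 16 kb of the position where the posterior H3K27me3 domain ended in QSC, for HoxA (top) and HoxC (bottom). The horizontal axis is distance in kb with the group 13 side to the left, the solid line is the border and dotted lines are gene starts. The ASC border lies 233 bp away in HoxA and 123 bp away in HoxC, H3K4me3 fills most of the right side, and in ASC more H3K4me3 lies left of the line, at Hoxa11 and Hoxc12.

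The bases under both marks were more in ASC in HoxA and HoxC and fewer in HoxD. Bases under an H3K4me3 narrow and an H3K27me3 broad peak at once were 6313 in QSC and 15279 in ASC in HoxA, and 2968 and 7624 in HoxC. In HoxD they were 4222 and 3403, and in HoxB 0. Bases under neither were 25.3% of HoxA in QSC and 15.8% in ASC, 33.2% and 24.6% of HoxC, and 0 in HoxB and HoxD. Overlap in pooled lists may come from the same or from different cells. With narrow lists for both marks, an alternative chosen after seeing the data, 3 members had both marks in QSC, namely Hoxa11, Hoxd9 and Hoxd8. Among the others, Hoxa13, Hoxa10, Hoxa7 and Hoxd3 lost the call there. With broad lists for both, 17 members had both in QSC and 18 in ASC.

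Some H3K4me3 narrow peaks in the clusters lay away from every member start. There were 9 of these in HoxC in QSC, with folds from 3.54 to 10.4, and 3 in ASC, with folds from 4.52 to 14.1. Of the 9, 4 overlapped ASC peaks that reach a member start and so are not counted in ASC. HoxA held 2 in QSC and 3 in ASC, and HoxB and HoxD held none. Of these, a peak inside the Hoxa3 record, far from its listed start, had a fold of 3.63 in QSC and lay where 2 peaks with folds of 6.14 and 11.6 were called in ASC. Starts of Hoxa3 other than the listed one were not analysed here.

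Non-coding genes of the clusters carried the marks as follows. Hotair, a long non-coding RNA of the HoxC cluster that has been linked to Polycomb in human cells, had H3K4me3 in both states. In QSC a peak with a fold of 8.47 covered an end of its record. Another, with a fold of 10.4, lay outside the record within 1 kb of the opposite end. The strongest ASC peak had a fold of 37.8 and is the one that also covers the Hoxc11 start. H3K27me3 at Hotair was weak, with folds of 1.84 in QSC and 1.46 in ASC. Hottip, transcribed next to Hoxa13, had H3K27me3 and no H3K4me3 narrow peak in either state. H3K4me3 broad peaks with folds of 2.48 in QSC and 3.21 in ASC overlapped its record. The miR-196 genes, whose seed AGGUAGU is shown above, differed by cluster. Mir196b, between Hoxa9 and Hoxa10, had H3K4me3 folds of 22.5 in QSC and 32.3 in ASC and no H3K27me3. Mir196a-2 in HoxC had H3K4me3 folds of 9.19 and 19.7 and no H3K27me3. Mir196a-1 in HoxB encodes the same mature miR-196a-5p as Mir196a-2 and had the opposite marks, with H3K27me3 folds of 4.01 and 5.79 and no H3K4me3. Both genes with the seed ACCCUGU, Mir10a in HoxB and Mir10b in HoxD, carried H3K27me3 without an H3K4me3 narrow peak, Mir10b with folds of 3.68 and 4.89. Mir615, within the Hoxc5 record, had H3K4me3 folds of 9.44 and 11.0, no H3K27me3 in QSC and an H3K27me3 peak with a fold of 1.58 in ASC. Those peaks are the ones that touch the Hoxc5 window.

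Protein-coding genes outside the clusters were called in the same way. Of 14 neighbours, 10 had H3K4me3 in each state (55.3% and 57.7% of all genes in QSC and ASC), and 5 in QSC and 7 in ASC had H3K27me3 (22.6% and 27.8%). The homeobox genes Evx1 and Evx2, next to group 13 of HoxA and HoxD, had H3K27me3 alone, as did Ttll6 and Skap1 beside HoxB. Mtx2, past the group 1 end of HoxD, had H3K4me3 folds of 15.0 and 25.6 and an H3K27me3 call in ASC, from 508 bp at the end of the HoxD peak. Calcoco1 and Smug1 on either side of HoxC, Lnpk beside HoxD and Hibadh beside HoxA had H3K4me3 alone in both. Of 18 genes that act with or upstream of Hox proteins, 14 had H3K4me3 in each state, beside the same 55.3% and 57.7% of all genes. Meis1, a homeodomain cofactor of Hox proteins, had folds of 15.0 and 18.8. The Hox-activating factors Cdx2 and Cdx4 had H3K27me3 alone in both states, as did Cyp26b1, an enzyme that breaks down retinoic acid. Meis2 and Cyp26a1 had both marks in both states, and Pbx4 and Pknox2 had the H3K27me3 call in ASC.

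Promoter sequence varied within the marked classes. Over 24 promoters of 22 members, the 250 bases before the start held a median of 12.5 CG dinucleotides, from 2 to 35, beside a median of 10 over 21263 protein-coding promoters. Hoxa13, with both marks, held 35, and Hoxd13, with H3K27me3 alone, held 31. Hoxa9, under the longest H3K4me3 peak of HoxA, held 3. Promoters were classed by the QSC marks of their gene. The medians were 18 for the 5 of genes with H3K4me3 alone, 12.5 for the 8 of genes with both marks and 12 for the 11 of genes with H3K27me3 alone. The 8 include the proximal Hoxa10 promoter, which held 20 and whose start had no H3K27me3. Of the promoters printed above, Hoxa11 held 13 CG dinucleotides, distal Hoxa10 held 7, Hoxd10 held 20 and Hoxd9 held 13. The letters GGGCGG, the core of a GC box, occurred on either strand in 10 of the 24, which is 41.7%, beside 42.6% of all promoters. TATAAA occurred in 4, or 16.7%, beside 11.6%, and TAATTA, a core bound by many homeodomains, in 2, or 8.33%, beside 4.31%. Those 2 promoters belong to the same gene, Hoxd11. These letter counts are descriptions of the windows and name no bound factor.

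At 9 satellite cell genes, among them Pax7, Myf5 and Myod1, all 9 carried H3K4me3 in both states, where 55.3% and 57.7% of all genes did, and Chrdl2 and Calcr also had H3K27me3 in ASC. Of 7 immune genes none carried H3K4me3 in either state. H3K4me3 was called at 3 of 7 endothelial genes in QSC and 4 in ASC, at 1 and 3 of 6 fibro-adipogenic genes, at 3 and 2 of 5 pericyte and smooth muscle genes and at 2 and 2 of 5 Schwann and glial genes. Peak calls give no share of cells, and the part of other cells or of mixed positional origins of the muscle in the Hox marks was not tested.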

How the data were processed

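H3K4me3 and H3K27me3 ChIPmentation was described in QSC and ASC, with groups taken from sample titles. The authors' build and tools, per the submitters' processing notes, were mm10 and MACS2 2.1.1, Bowtie2 2.3.2, SAMtools 1.3, Trimmomatic 0.36, Picard 2.9.2, bedtools 2.26.0 and bcl2fastq 2.19, with settings not stated. Per peak, the authors deposited a fold enrichment (a linear ratio), the −log10 of a q-value, a score, and in narrow lists a summit offset. Read depth is unknown from these lists. Signal tracks were not used here. A member that enters the counts is not reported here by name.

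Bases under peaks were computed with Python 3.11.15, pandas 2.3.3 and numpy 2.4.6, on code tested on simulated data. Gene records, promoters and microRNAs came from RefSeq GRCm38.p6, which shares coordinates with mm10. Peaks were merged over gaps of 1 kb (H3K4me3) or 3 kb (H3K27me3) for domain counts. No test was made, as each group has 1 list.

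The members, lists and tests were chosen with earlier results of these data known, and the rule for gene starts was settled after the files showed starts for part of the genes. All members could be named, with full values for those whose calls differ between states or along a cluster, those with no call of a mark, and those with the highest fold or coverage; related genes came from lists in the same plan. Alternatives were 9 planned settings and 2 added after seeing the data.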

Additional observations from a re-analysis of the deposited data

How the results depend on the processing

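The states changed order at equal covered bases in the H3K4me3 counts, the counts with both marks and the cluster bases under each mark. Those bases were 95790 bp in QSC and 83762 bp in ASC for H3K4me3, and 344748 and 342215 bp for H3K27me3. With the lists as reported, ASC had more bases under each mark (118408 and 354827 bp). The order also turned in the H3K4me3 bases of the broad lists and in the H3K4me3 domain count with merging over 3 kb. The counts and covered bases reported stayed within 1.5 times under 112 of 138 combinations of result and setting. Some of the 138 could not change. Narrow lists are those reported for H3K4me3 and broad lists those reported for H3K27me3, and limits to equal size leave the smaller list as it was. The 112 is therefore no measure of stability. The combinations outside 1.5 times follow. At a −log10 q of at least 5, H3K27me3 in QSC fell to 0 genes and 0 bp of the clusters, both marks in QSC to 0 genes, and 24 genes had H3K27me3 in ASC only. The QSC H3K27me3 broad peaks over the clusters lie below that minimum. At equal covered bases, H3K4me3 was called at 9 genes in ASC, both marks at 2 in ASC, H3K4me3 at 0 in ASC only and at 11 in QSC only (2 and 0 as reported), and H3K27me3 at 1 in QSC only (Hoxa7). Broad lists gave covered lengths for H3K4me3 of 202617 bp (QSC) and 194839 bp (ASC), in place of 95790 and 118408 bp, both marks at 17 and 18 genes, and H3K4me3 in QSC only at 2 genes (Hoxd13 and Hoxd4). Inside the limit of 1.5 times, they called H3K4me3 at 29 genes in QSC and 30 in ASC, in place of 20 and 22. The genes with H3K4me3 in ASC only were then Hoxb9, Hoxc12 and Hoxd10. Narrow lists gave both marks at 3 genes in QSC and H3K27me3 in ASC only at 2 (Hoxa13 and Hoxd3). The count with H3K27me3 in ASC only, 0 as reported, was 2 at a fold of at least 3, 1 at equal numbers of peaks, 3 with windows of 2.5 kb, 1 with larger overlaps and 2 at either end of the record. Larger overlaps left 1 gene with H3K27me3 in QSC only (Hoxa10). Merging over 10 kb gave 6 in place of 13 H3K27me3 domains in ASC, and over 3 kb 15 in place of 24 H3K4me3 domains in QSC. No paired analysis was possible because each list pools the replicates of its group, and leaving out a replicate could not be run for the same reason. Unknown read depth limits what an absent peak shows.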
